A study of Mus musculus with 12 samples.

Results

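Osteogenic induction was followed in the control cells of the series, mesenchymal cells grown from the mandibular condyle, the articulating end of the lower jaw. The comparison takes 6 of the 12 libraries, chosen by their titles, with 3 OI-AdV-EGFP libraries against 3 AdV-EGFP libraries, and covers every gene in the deposited table. All cells carried the floxed Plagl1 fl/fl alleles, came from newborn mice and had been passaged, and both groups received a control adenovirus that expresses EGFP and no Cre, at a multiplicity of infection of 100. The AdV-EGFP cells were collected on day 0, and the OI-AdV-EGFP cells after 4 days in medium with β-glycerophosphate (5 mM), ascorbic acid (50 µg/ml) and the synthetic glucocorticoid dexamethasone (100 nM). Infected cells kept for 4 days without this medium were not among the libraries, so a change with medium and a change with time cannot be told apart. The labels and methods do not state whether the replicates of a group were separate cultures or animals, so p-values describe only how far these libraries scatter, which may be technical scatter. In these bulk libraries, fewer cells of a type and less RNA per cell cannot be told apart.

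Osteogenic medium combines a phosphate donor, a cofactor for collagen hydroxylation and a steroid. Dexamethasone binds the glucocorticoid receptor, which activates genes through paired half-sites in DNA and holds down many genes driven by AP-1 and NF-κB. Cells that have reached confluence also leave the cell cycle and lower the response to serum growth factors, in which ERK signalling drives immediate early transcription factors and the phosphatases and Sprouty proteins that feed back on it.

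Of 22063 genes in the table, 13670 had enough counts to be tested. The 6 libraries held 15316989 to 18052040 counts each, with 7.39% to 9.18% of them in the 10 highest genes. Libraries of the same group differed by at most 0.376 in log2 CPM (counts scaled by library size, root mean square over genes), against at least 1.22 between days. Plagl1, the floxed gene, which neither group was given Cre to recombine, stood at 386, 426 and 390.2 CPM on day 0 and 402, 393 and 379.5 CPM on day 4. The groups overlapped (log2 fold change −0.03, adjusted p = 0.46). Defining mesenchymal markers were present throughout, and the summed level of the 10 markers was 21933 to 22777 CPM on day 0 and 23505 to 26125 CPM on day 4. Abundant genes such as Col1a2 (mean 6813 to 8334 CPM) weigh most in that sum. Of the 10 markers, 5 had a positive and 5 a negative log2 fold change. Only Pdgfra (157 to 436 CPM) and Twist1 (29.7 to 60.5 CPM) changed more than 2-fold, both upward.

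Values below are CPM after TMM scaling, in the order of replicates 1, 2 and 3, with means ± SD over n = 3 libraries. Fold changes, standard errors and adjusted p-values come from edgeR's quasi-likelihood test with Benjamini-Hochberg adjustment over all tested genes. A gene is said to have risen or fallen at an adjusted p under 0.05 and at least a 2-fold change. In OI-AdV-EGFP, 2063 genes (15.1% of those tested) rose and 1478 (10.8%) fell. Without the fold threshold 10413 genes (76.2%) had an adjusted p under 0.05, and in 10545 (77.1%) the groups did not overlap, so a gene passing the adjusted p alone was the rule here and not the exception. The median log2 fold change was 0.05 over all tested genes, 1.79 over those that rose and −1.55 over those that fell.

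The rises were larger and lay lower in abundance than the falls. A log2 fold change of 3 or more was reached by 464 genes that rose and 133 that fell, and of 5 or more by 143 and 14. Genes that rose took 4.01 ± 0.011% of all counts on day 0 and 14.9 ± 0.10% on day 4, a description, since their choice fixes the direction. Genes that fell took 12.2 ± 0.13% and 4.35 ± 0.0095%. In the lowest of 4 equal bins of tested genes by mean CPM, 28.6% rose and 16.03% fell, against 8.05% and 8.40% in the highest bin. The 48 functional lists described below held 476 of the called genes (13.4%), so most of the response lay outside them. The 11 marker lists, also described below, are not part of that count.

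**Figure D1:**
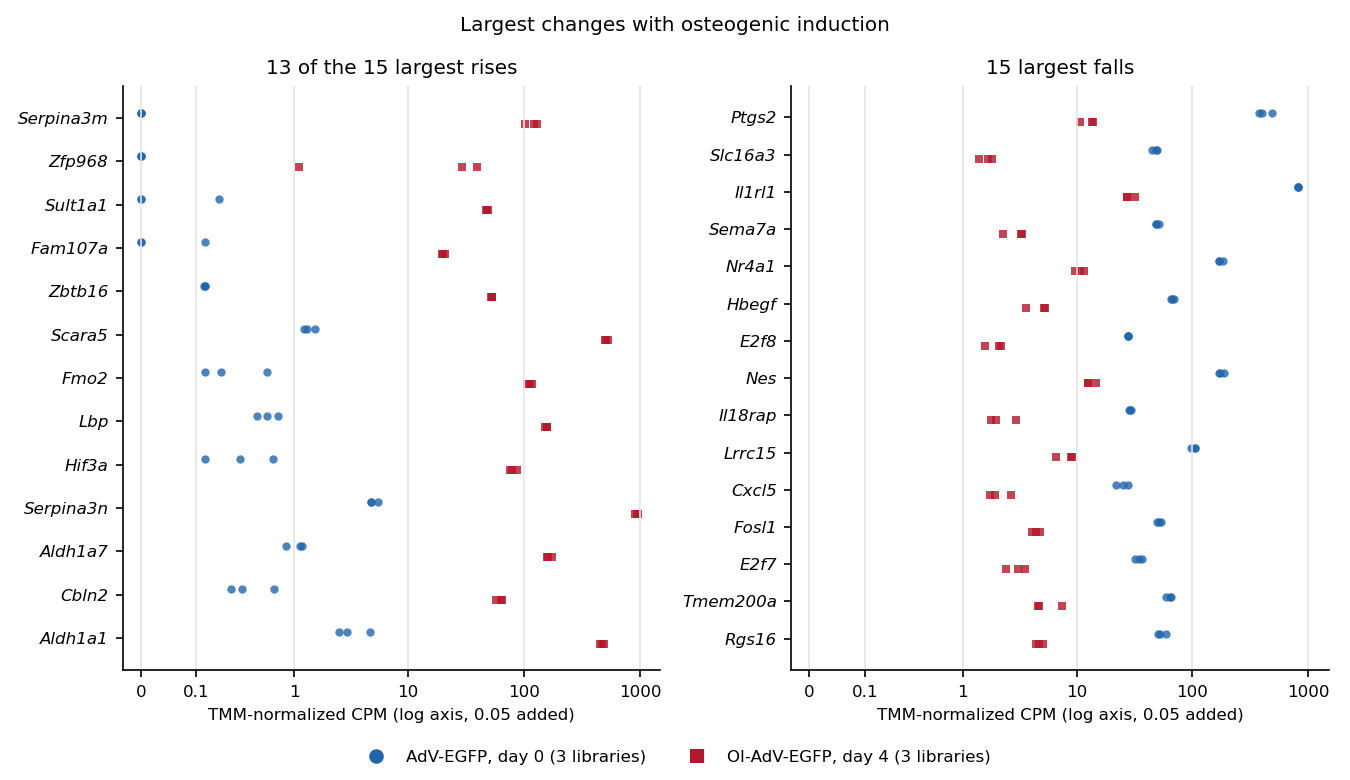
CPM after TMM scaling (log axis) of 13 of the 15 genes with the largest rises and of the 15 with the largest falls, in each of the 3 AdV-EGFP libraries (day 0) and the 3 OI-AdV-EGFP libraries (day 4), 1 point per library, with 0.05 added so that values of 0 can be drawn. The days lie apart in every gene shown, which follows from the choice of genes without overlap. Only Zfp968 has day 4 libraries that differ widely from each other.

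Enzymes that oxidize or conjugate small molecules were among the largest rises. Fmo2, a flavin-containing monooxygenase, stood at 0.194, 0.128 and 0.556 CPM on day 0 and 117, 112 and 106 CPM on day 4. Its log2 fold change was 8.53 (standard error 0.14, adjusted p = 8.1e-25), and 9.36 without AdV-EGFP replicate 3. The sulfotransferase gene Sult1a1 went from 3 counts, all in AdV-EGFP replicate 3, to 2523, a ratio of 757 (95% exact counting interval 259 to 3672). Both groups of both genes were separated by more than an order of magnitude in every library.

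Some aldehyde dehydrogenases also rose, while Aldh1a3 (−1.61) fell. Aldh1a1, which makes retinoic acid from retinaldehyde, stood at 4.65, 2.94 and 2.47 CPM on day 0 and 489.8, 474 and 450.3 CPM on day 4, or 7.14 as a log2 fold change (standard error 0.09, adjusted p = 1.5e-27). Its close relative Aldh1a7 went from 1.03 ± 0.179 to 165 ± 9.60 CPM (log2 fold change 7.30), and since the sequences are close, some reads may be shared. Of 29 tested xenobiotic enzymes, 23 rose and 1 fell, with a median log2 fold change of 1.87 against 0.05 over all genes. The rises included 5 of the Fmo genes and 8 glutathione S-transferases of the Gstm, Gstt, Gsta and Gstk classes, such as Gstt1 (log2 fold change 4.44) and Gstm2 (1.92). The gene that fell was Nqo1, a quinone reductase and a textbook NRF2 target, from 171 ± 6.22 to 67.9 ± 2.44 CPM.

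Secreted protease inhibitors and acute phase proteins also rose from low levels. Serpina3n, an inhibitor of leukocyte proteases, stood at 5.42, 4.79 and 4.75 CPM on day 0 and 959, 951 and 903 CPM on day 4, or 7.55 as a log2 fold change (standard error 0.06, adjusted p = 5.7e-31), and reached the highest level of the 15 largest rises. Serpina3m had no count on day 0 and 2194, 2119 and 1884 counts on day 4, at least 1859-fold higher against a floor of 3 counts over the 3 libraries. The Serpina3 genes are closely related copies, so how reads were divided among them is uncertain. Haptoglobin, Hp, which binds free hemoglobin, went from 0.339 ± 0.104 to 44.3 ± 5.41 CPM (log2 fold change 7.004), and Lcn2, lipocalin-2, which binds bacterial iron carriers, from no count to 218, 250 and 282 counts, at least 225-fold higher.

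Transcription and signalling genes with large rises included Zbtb16, a zinc finger repressor also known as PLZF, at 0.129, 0.128 and 0.124 CPM on day 0 and 52.7, 53.1 and 52.4 CPM on day 4. Its log2 fold change was 8.62 (standard error 0.16, adjusted p = 1.2e-23), with less than a 2-fold spread among the day 4 libraries. Cbln2, a secreted synapse organizer of the brain, went from 0.404 ± 0.212 to 61.7 ± 3.40 CPM (log2 fold change 7.24). Fam107a, an actin-associated protein, had 2 counts on day 0 and 1061 on day 4, a ratio of 477 (95% exact counting interval 132 to 3947). Zfp968, a zinc finger gene, had no count on day 0 and 495, 19 and 726 counts on day 4, so OI-AdV-EGFP replicate 2 stood far below the others. It belongs to a family of similar zinc finger genes, which makes its reads uncertain. In the AdV-CRE-EGFP libraries of the series it averaged 17.2 CPM on day 0, and 12.1 CPM on day 4 of induction. Its absence on day 0 thus holds for the AdV-EGFP libraries only.

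The promoters of 4 genes described here are shown as examples, picked because each holds the motif of a factor tied to the medium, to growth signals or to the cell cycle. Sequences are RefSeq's, 250 bases before to 50 after the start on the gene's own strand, and were placed on GRCm39 by exact match. Capitals mark ACANNNTGT, the spacing of a glucocorticoid receptor half-site pair, in Serpina3n (chr12:104372717-104373016, plus strand) and in the metallothionein gene Mt1 (chr8:94905467-94905766, plus strand). They mark TGACGTCA, the cAMP response element, in Areg (chr5:91287208-91287507, plus strand), and TTTCCCGC or TTTGGCGC, an E2F site, in E2f7 (chr10:110581050-110581349, plus strand), each on either strand. Of 32851 mouse promoters of this length in the table, 6.85% held the first motif, 1.79% the second and 1.56% either form of the third.
Serpina3n: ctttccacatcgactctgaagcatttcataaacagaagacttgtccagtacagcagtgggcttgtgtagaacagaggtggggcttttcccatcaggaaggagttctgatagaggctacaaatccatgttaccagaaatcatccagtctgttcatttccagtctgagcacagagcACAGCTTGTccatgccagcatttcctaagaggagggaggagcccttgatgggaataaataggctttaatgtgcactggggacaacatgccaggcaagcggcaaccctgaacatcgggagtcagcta
Mt1: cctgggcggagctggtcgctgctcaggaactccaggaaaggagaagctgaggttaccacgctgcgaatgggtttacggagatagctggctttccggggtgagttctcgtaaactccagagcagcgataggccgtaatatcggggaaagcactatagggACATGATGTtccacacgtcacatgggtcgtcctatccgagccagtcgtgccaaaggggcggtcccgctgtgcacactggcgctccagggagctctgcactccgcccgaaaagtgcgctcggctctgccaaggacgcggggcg
Areg: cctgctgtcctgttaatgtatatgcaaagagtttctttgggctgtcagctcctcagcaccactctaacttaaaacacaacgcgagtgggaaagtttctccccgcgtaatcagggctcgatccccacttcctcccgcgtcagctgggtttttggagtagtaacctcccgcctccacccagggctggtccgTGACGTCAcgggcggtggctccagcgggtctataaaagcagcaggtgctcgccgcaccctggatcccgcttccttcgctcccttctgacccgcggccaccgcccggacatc
E2f7: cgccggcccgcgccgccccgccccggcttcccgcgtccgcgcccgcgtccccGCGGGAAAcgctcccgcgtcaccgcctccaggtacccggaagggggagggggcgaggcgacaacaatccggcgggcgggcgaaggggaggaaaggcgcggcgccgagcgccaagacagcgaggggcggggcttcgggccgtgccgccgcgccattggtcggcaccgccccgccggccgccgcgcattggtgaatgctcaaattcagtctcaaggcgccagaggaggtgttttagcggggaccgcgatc

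Of the 15 largest rises, 8 had a promoter in the table, and 2 of them, Fam107a and Serpina3n, held ACANNNTGT. Of the 15 largest falls, 12 had a promoter, of which 1, Il1rl1, held ACANNNTGT and 1, E2f7, held an E2F site. A match of letters is a description and does not show that a factor binds.

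Measured by the gain in CPM, which depends on transcript length, most of the 8 largest gains were of genes for matrix or secreted proteins. Postn, periostin, a matricellular protein of periosteum and ligament, stood at 1129.6, 1062 and 1040.4 CPM on day 0 and 10456, 9645 and 9308 CPM on day 4, or 3.19 as a log2 fold change (standard error 0.04, adjusted p = 5.4e-27). Gsn, gelsolin, which severs actin filaments, went from 725 ± 7.69 to 4476 ± 136 CPM (log2 fold change 2.63). Igfbp5, an IGF-binding protein abundant in bone, stood at 143, 131 and 139 CPM on day 0 and 2066, 2229 and 1996 CPM on day 4 (3.93), and Gas6, a ligand of the TAM receptors first found in growth-arrested cells, at 78.5, 82.2 and 77.1 CPM on day 0 and 1829.7, 1919 and 1941 CPM on day 4 (4.58). The 3 day 4 libraries of each of these lay far above all day 0 libraries. The other large gains were Prss23, a secreted protease (657 ± 20.2 to 2205 ± 35.4 CPM), Col4a1, a collagen of basement membranes (1254 ± 41.2 to 2884 ± 173 CPM), the ferritin heavy chain Fth1 (1254 ± 27.7 to 3078 ± 172 CPM), and Lox, lysyl oxidase, which cross-links collagen and elastin (1948 ± 90.7 to 4025 ± 155 CPM). Levels of different genes can be set side by side only per length, and on the FPKM scale Postn went from 358 to 3270.5 FPKM and Gas6 from 31.4 to 755 FPKM. On that scale Fth1 went from 1405 to 3446 FPKM, Gsn from 308 to 1783 FPKM and the metallothionein gene Mt2, outside these 8, from 132 to 1142 FPKM. The order of the gains thus depends on the scale.

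The largest falls included an enzyme, a transporter, receptors and growth regulators. Among genes with a mean of at least 10 CPM, the inducible cyclooxygenase Ptgs2, which makes prostaglandins, fell most, at 375, 485 and 402 CPM on day 0 and 13.9, 10.7 and 13.5 CPM on day 4 (−5.05), followed by Slc16a3, which exports lactate, at 44.7, 49.997 and 48.8 CPM on day 0 and 1.82, 1.39 and 1.69 CPM on day 4 (−4.86). Il1rl1, the receptor of interleukin-33, stood at 815, 812 and 816 CPM on day 0 and 32.2, 27.4 and 27.1 CPM on day 4, or −4.82 as a log2 fold change (standard error 0.06, adjusted p = 7.8e-28). Il18rap, a chain of the interleukin-18 receptor, went from 29.1 ± 0.713 to 2.25 ± 0.625 CPM (−3.69). Sema7a, a membrane-anchored semaphorin, stood at 51.6, 49.04 and 48.4 CPM on day 0 and 2.29, 3.37 and 3.26 CPM on day 4 (−4.05), and Nes, nestin, an intermediate filament of progenitor cells, at 169, 187 and 173 CPM on day 0 and 12.5, 14.6 and 12.6 CPM on day 4 (−3.74). Every day 4 library lay below every day 0 library in these genes, which follows from their choice, since only genes without overlap were taken. Others were Lrrc15, a leucine-rich repeat membrane protein of mesenchymal cells (103 ± 4.33 to 8.19 ± 1.40 CPM), Tmem200a (63.2 ± 3.87 to 5.59 ± 1.57 CPM), Rgs16, which speeds GTP hydrolysis by G proteins (53.8 ± 4.41 to 4.76 ± 0.330 CPM), and the neutrophil chemokine Cxcl5 (24.9 ± 2.92 to 2.12 ± 0.485 CPM).

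Measured by the loss in CPM, genes of the actin cytoskeleton led. Acta2, smooth muscle α-actin, stood at 4132, 4045 and 4167 CPM on day 0 and 1346, 1270.2 and 1342 CPM on day 4 (log2 fold change −1.64), and the cytoplasmic Actg1 at 4055, 4120.1 and 4197 CPM on day 0 and 1676, 1780.2 and 1732 CPM on day 4 (−1.25). Flna, a filamin that cross-links actin, went from 3433 ± 156 to 1499 ± 26.2 CPM, and the tropomyosin Tpm1 from 2081 ± 94.5 to 657 ± 23.4 CPM. Tnc, tenascin-C (2261 ± 125 to 304 ± 9.63 CPM), and Eno1, enolase of glycolysis (1643 ± 51.8 to 559 ± 16.7 CPM), were also among the 8 largest losses. Of 29 tested genes of the actin cytoskeleton, 13 fell and 1 rose, with a median log2 fold change of −0.96, and their summed level went from 33756–34374 to 16278–16439 CPM. The gene that rose was Mylk, myosin light chain kinase, at 20.3, 18.7 and 15.8 CPM on day 0 and 131, 122 and 125 CPM on day 4 (2.79). Cnn1, calponin (−2.46), Tagln (−1.91) and Tagln2 (−1.91) fell most. Actb, a reference gene of many assays, had −0.88, short of the fold threshold. Of 15 tubulins 6 fell, led by Tubb6 (−2.05), and none rose by edgeR (3 at an unadjusted p under 0.05, 0 by DESeq2), although 1 rose without AdV-EGFP replicate 1 or OI-AdV-EGFP replicate 3.

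In growth factor signalling, most tested EGF family ligands, immediate early factors and genes of MAPK feedback fell. This does not extend to ligands of all families, since some rose, among them Gas6 and Angpt1. Among ligands of the EGF family, 5 of 9 tested fell and 1 rose. Areg, amphiregulin, stood at 7.10, 8.68 and 10.5 CPM on day 0 and 0.0588, 0.174 and 0.0544 CPM on day 4 (−6.42, and −7.10 without OI-AdV-EGFP replicate 2), Hbegf went from 67.4 ± 1.81 to 4.70 ± 0.903 CPM (−3.84) and Ereg, epiregulin, from 98.8 ± 7.26 to 16.2 ± 2.18 CPM (−2.61). Tgfa, a ligand of the same receptor, moved the other way, at 2.001, 2.55 and 1.73 CPM on day 0 and 30.1, 30.6 and 31.3 CPM on day 4 (3.87, standard error 0.14, adjusted p = 2.5e-18). The promoter of Areg is printed above.

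Downstream, 18 of 24 immediate early factors fell and none rose, with a median of −1.59. Beside a count of 0, the members at an unadjusted p under 0.05 in that direction and those called by DESeq2 are given, here 2 and 0. Fosl1, an AP-1 subunit, went from 51.5 ± 2.13 to 4.45 ± 0.349 CPM (−3.53), Egr3 had −2.90, Jun −1.75, Egr1 −1.74 and Myc −1.44. Fos itself had a positive log2 fold change of 0.87, short of the threshold, so the AP-1 subunits did not all move one way. Of 16 genes in the list of MAPK feedback 12 fell, among them Phlda1 (−3.44), Etv4 (−3.29), Dusp10 (−3.21) and Spry1 (−2.66). Dusp14, also a phosphatase of MAP kinases, rose (1.09). Of 22 readouts of YAP and TEAD, 4 fell, among them Ccn2, connective tissue growth factor (819.6 ± 27.0 to 342 ± 9.63 CPM), and F3, tissue factor (−1.37), and 1, Tgfb2 (1.86), rose.

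Developmental pathways changed gene by gene. In the hedgehog pathway the coreceptor genes Gas1 (38.1, 37.0 and 39.2 CPM on day 0 and 432, 404 and 429 CPM on day 4, 3.47) and Boc (1.97) and the transcription factor Gli2 (1.16) rose, while Hhip, a target and decoy receptor, fell (−3.47), as did Gli3 (−1.07). Of 22 Wnt antagonists and feedback genes 9 rose and 3 fell. The R-spondins, which amplify Wnt signals through LGR receptors, rose in 3 members, with Rspo3 at 2.36, as did the inhibitor Wif1 (2.09). Lef1, a nuclear effector, fell (−3.41, and −5.17 without OI-AdV-EGFP replicate 2), as did the receptor Lgr6 (−3.28).

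In the BMP and TGF-β list 8 of 22 genes rose and 9 fell. The rises included the inhibitors of DNA binding Id2, Id3 and Id4, which BMP induces (1.25, 1.20 and 2.27), and the BMP antagonists Chrdl1 (3.40) and Chrd (2.12). Grem1, gremlin, also a BMP antagonist, stood at 706, 765 and 719 CPM on day 0 and 203, 180.0 and 183 CPM on day 4 (−1.95), so antagonists went both ways. Genes that TGF-β induces, Skil (−1.71), Smad7 (−1.57), Tgif1 (−1.99) and Pmepa1 (−1.73), fell. In the Notch pathway Hey1 (1.93) and the ligand-like Dlk1 (1.71) rose and Hes1 fell (−1.14). Of 9 angiopoietins and related genes 5 rose and none fell by edgeR (1 at an unadjusted p under 0.05, 1 by DESeq2), among them Angpt1, the activating ligand of the TEK receptor, at 36.1, 38.9 and 37.9 CPM on day 0 and 232, 220.1 and 216 CPM on day 4 (2.57), and Angptl7 (3.17). Semaphorins, netrins, slits and their receptors were called about as often as all genes, with 7 of 44 (15.9%) up, such as Sema3g (3.77), and 7 (15.9%) down, such as Robo3 (−2.24).

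**Figure D2:**
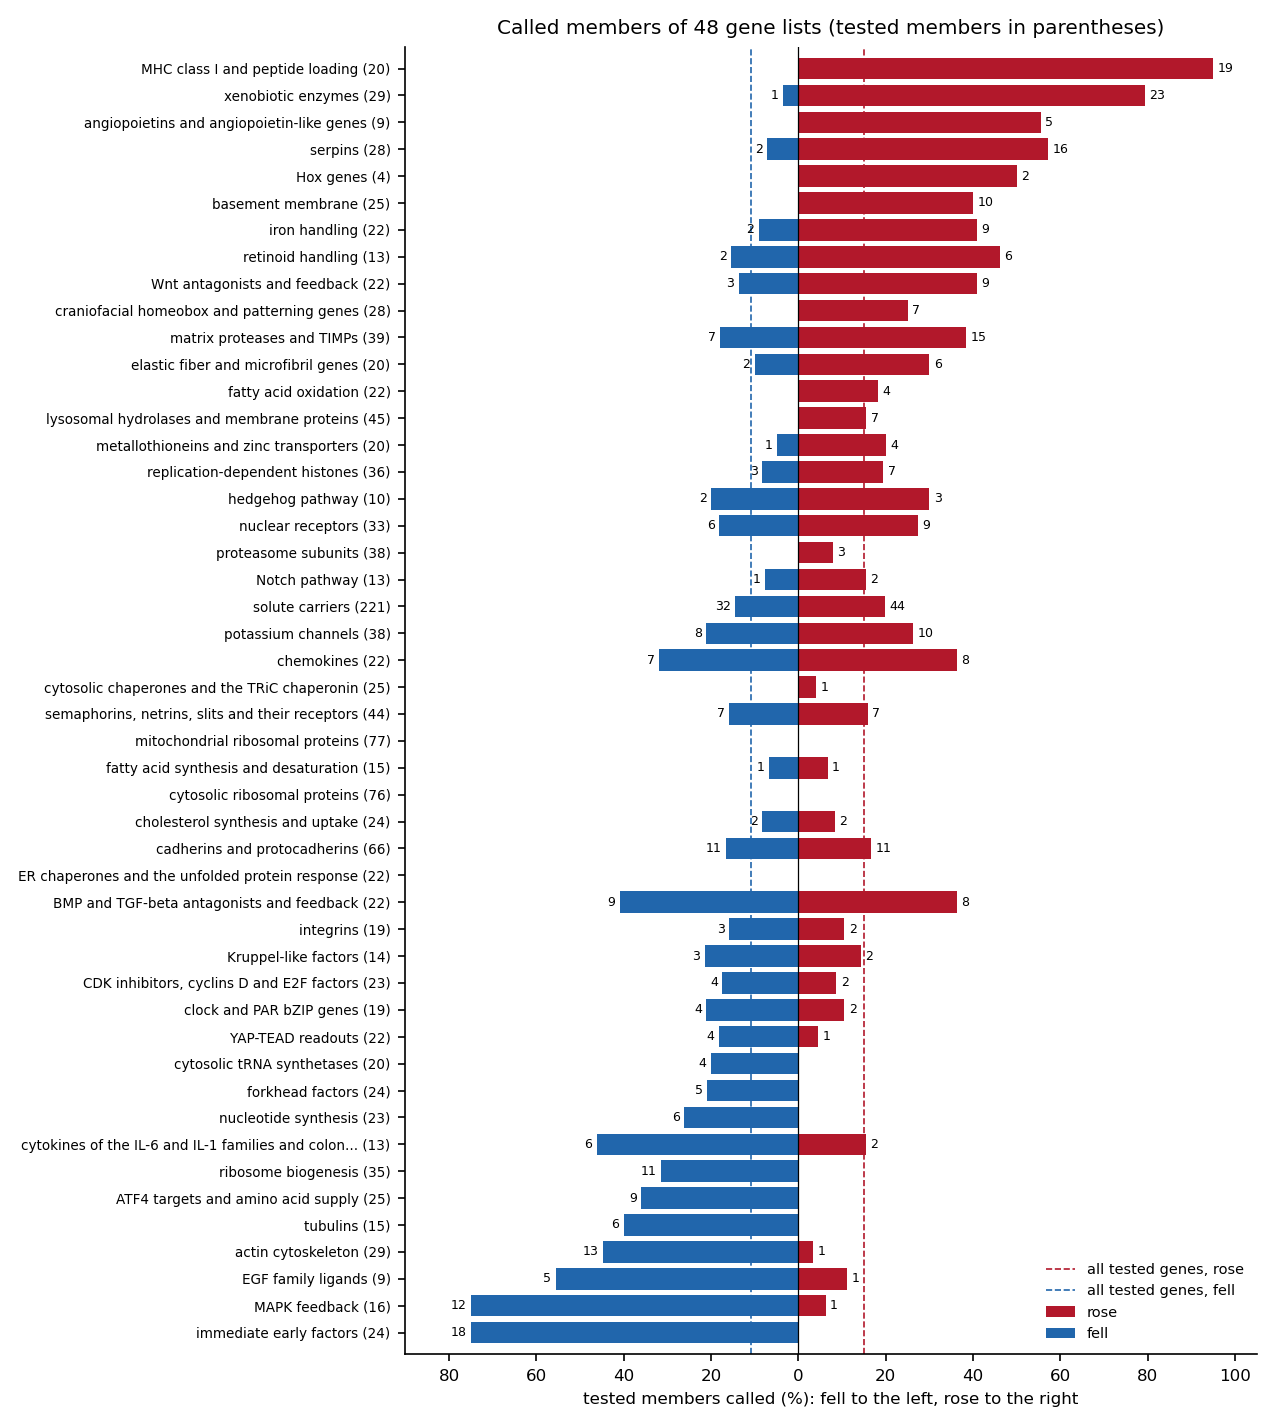
Share of the tested members of each of the 48 functional lists that rose (bars to the right, percent) or fell (bars to the left) with induction in the EGFP cells, with the number of genes at the bar's end and the number tested after the list's name. The dashed lines mark 15.1% and 10.8%, the shares over all tested genes. MHC class I and xenobiotic enzymes lie farthest to the right (19 of 20 and 23 of 29), immediate early factors and MAPK feedback farthest to the left (18 of 24 and 12 of 16).

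In the matrix, which osteoblasts and fibroblasts lay down and remodel, 10 of 25 basement membrane genes rose and none fell by edgeR (7 at an unadjusted p under 0.05, 1 by DESeq2, and 1 by edgeR without AdV-EGFP replicate 1 or 2 or OI-AdV-EGFP replicate 2). Smoc1, a calcium-binding matrix protein that modulates BMP signals, stood at 0.452, 0.255 and 1.11 CPM on day 0 and 51.4, 52.7 and 54.5 CPM on day 4 (6.41, and 7.18 without AdV-EGFP replicate 3), and the laminin chain Lama3 had 3.22. Proteases and their inhibitors took large changes in both directions, with 15 of 39 up and 7 down. Mmp13, the collagenase of hypertrophic cartilage and bone, stood at 19.5, 19.3 and 12.5 CPM on day 0 and 413, 351 and 399.8 CPM on day 4 (4.51, standard error 0.12, adjusted p = 1.1e-20). Adamts15 (6.10), a versican-cleaving protease, and the inhibitor Timp4 (7.23, and 10.83 without AdV-EGFP replicate 2) rose. The stromelysin Mmp10 (−4.43) and the elastase Mmp12 (−4.36, and −3.76 without OI-AdV-EGFP replicate 3 or −5.16 without replicate 1) fell. Among 20 genes of elastic fibers 6 rose and 2 fell, led by Eln, elastin, at 3.81, 2.94 and 3.52 CPM on day 0 and 84.4, 95.4 and 83.3 CPM on day 4, in which all day 4 libraries lay above all day 0 libraries. Of 19 integrins Itga10 (3.25), a collagen receptor of chondrocytes, and Itga8 (1.34) rose, while the laminin receptor chain Itga6 (139 ± 4.27 to 26.4 ± 1.78 CPM, −2.40), Itga7 and Itgb7 fell.

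Immune genes rose in several families, and markers of macrophages and osteoclasts rose with them. Of 10 such markers 8 were tested and 4 rose, namely Cd68, Fcer1g, Acp5 and Ctsk, and all 8 had a positive log2 fold change. Their summed level was 205–215 CPM on day 0 and 471–512 CPM on day 4, of which Ctsk, cathepsin K, made up most (157 ± 6.05 to 392 ± 21.8 CPM). The defining leukocyte gene Ptprc stood at 4.003, 4.98 and 5.80 CPM on day 0 and 5.70, 6.16 and 6.69 CPM on day 4 (0.33), and Calcr and Ocstamp of osteoclasts at or near 0. The part of these cells in the immune genes was not tested.

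Of 20 genes of MHC class I and peptide loading 19 rose, with a median of 1.94. H2-T23, a nonclassical class I molecule, stood at 10.01, 13.6 and 13.6 CPM on day 0 and 136, 121 and 116 CPM on day 4 (3.32), the classical H2-K1 had 2.89 and the light chain B2m 2.04. Class I genes are closely related, so how reads were shared among them is uncertain. The 3 proteasome subunits that rose among 38 tested, Psmb8 (2.48), Psmb9 (3.65, and 4.24 without AdV-EGFP replicate 3) and Psmb10 (1.39), are those of the immunoproteasome, which replace the constitutive catalytic subunits, and no other subunit was called.

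Chemokines went both ways, with 8 of 22 up and 7 down. Those that rose included Ccl11, eotaxin (0.105 to 2.66 CPM, 4.56), Ccl8 (4.28) and Cxcl13, which attracts B cells and had no count on day 0 and 196 on day 4, at least 58.8-fold higher. Those that fell included the neutrophil chemokines Cxcl1 (−2.47), Cxcl3 (−2.50, and no longer called at −1.82 without AdV-EGFP replicate 2) and Cxcl5 (−3.55). Of 13 cytokine genes 6 fell, among them Il6 (−2.08), Lif (−2.19) and Il11 (−1.98). The interleukin-1 receptor antagonist Il1rn rose, at 35.9, 33.7 and 36.6 CPM on day 0 and 425, 393 and 412 CPM on day 4 (3.53), as did Il34, a ligand of the CSF1 receptor (3.02). Of 28 serpins 16 rose and 2 fell, among them Serpinb2 (−1.88), and their median was 2.25, or 1.59 with the 8 genes that had no count in a group set to their bound. The other medians given here were the same to 2 decimals with such genes at their bound.

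Some neighbouring genes rose together. Among 13657 tested genes with a place on GRCm39, 46 runs of 4 or more consecutive tested genes were called in the same direction, 41 upward and 5 downward, with 210 genes in all. Over all tested genes 15.1% rose and 10.8% fell, and how many runs to expect from these shares was not computed. The longest, on chr1:173296051-173859456, held 10 genes of the interferon-inducible p200 family, from Ifi206 to Ifi205, a family that includes sensors of DNA, with a median log2 fold change of 3.77. Ifi205 stood at 0.387, 0.766 and 0.247 CPM on day 0 and 29.4, 25.0 and 20.4 CPM on day 4 (5.72), Ifi209 had 4.73, Ifi207 3.52 and Ifi204 2.68. Ifi213 and Ifi208 had 2 and 3 counts on day 0 and 54 and 60 on day 4, ratios of 24.3 (95% exact counting interval 6.41 to 206) and 17.997 (95% exact counting interval 5.87 to 89.7). A run of 6 on chr7:103893663-104157107, from Trim34a to Trim30d, holds Trim5 and its relatives, a family with antiviral members, with a median of 2.65. Trim30d stood at 3.74, 4.34 and 2.96 CPM on day 0 and 71.5, 66.4 and 62.4 CPM on day 4 (4.18) and Trim30a had 4.27. Shorter runs of 5 held the 2′-5′-oligoadenylate synthetases on chromosome 5 (Oas2 to Oas1a, median 4.26), the Ifit genes on chromosome 19 (median 3.11) and guanylate-binding proteins on chromosome 3 (Gbp5 to Kyat3, median 2.93). Genes of these families are related copies and may share reads, which was not measured, so members of a run are not separate observations.

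The promoters of Ifi205 (chr1:173859272-173859571, minus strand), Ifi207 (chr1:173569326-173569625, minus strand) and Trim30d (chr7:104157007-104157306, minus strand) are shown for these runs. Capitals mark GAAANNGAA, the core of the interferon-stimulated response element, on either strand.
Ifi205: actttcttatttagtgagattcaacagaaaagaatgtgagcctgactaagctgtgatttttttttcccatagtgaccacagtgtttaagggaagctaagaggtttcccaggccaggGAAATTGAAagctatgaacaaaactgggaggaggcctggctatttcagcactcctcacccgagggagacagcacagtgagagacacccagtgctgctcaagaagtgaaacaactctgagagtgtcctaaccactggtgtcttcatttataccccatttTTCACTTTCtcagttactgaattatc
Ifi207: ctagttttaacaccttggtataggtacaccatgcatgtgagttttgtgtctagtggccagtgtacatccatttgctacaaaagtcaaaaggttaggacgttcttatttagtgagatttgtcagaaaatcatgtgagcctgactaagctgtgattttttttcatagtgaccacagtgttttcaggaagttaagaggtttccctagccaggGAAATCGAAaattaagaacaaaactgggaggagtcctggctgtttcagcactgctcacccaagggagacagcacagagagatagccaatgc
Trim30d: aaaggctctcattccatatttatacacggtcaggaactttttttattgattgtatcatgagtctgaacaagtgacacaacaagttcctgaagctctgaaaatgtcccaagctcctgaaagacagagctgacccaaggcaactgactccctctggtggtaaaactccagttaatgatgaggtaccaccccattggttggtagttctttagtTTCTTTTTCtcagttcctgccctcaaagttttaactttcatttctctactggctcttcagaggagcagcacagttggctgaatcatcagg

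The motif was in 8 of the 9 genes of the Ifi run with a promoter in the table, all but Ifi209, in 6 of 6 of the Trim run, in 4 of 4 of the Oas run and in 5 of 5 of the Ifit run. It was in 8.56% of all promoters of this length and in none of the 8 matched genes among the 15 largest rises. Copies made by duplication can share their promoters, so these genes are not separate observations either.

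Other long runs held unrelated families. A run of 7 on chr13:60322219-61084449 went from Gas1 to Ctla2a, with a median of 3.55. Ctla2a, an inhibitor of cysteine proteases, stood at 0.646, 0.830 and 0.185 CPM on day 0 and 55.4, 57.1 and 59.4 CPM on day 4 (6.69), and Dapk1, a death-associated kinase, had 1.47. Gm49391 in this run was no longer called without OI-AdV-EGFP replicate 2, and 4930486L24Rik moved from 5.26 to 9.61 without AdV-EGFP replicate 3. A run of 6 on chr14:51168473-51343608 held purine nucleoside phosphorylase, Pnp (39.2 ± 1.72 to 196 ± 2.15 CPM), and ribonucleases, among them Rnase4 (202 ± 4.16 to 871 ± 22.8 CPM, 2.11) and angiogenin, Ang (1.24). Another, on chr1:192890007-194774561, went from Lamb3 to Cd46 and held Hsd11b1, the enzyme that regenerates active glucocorticoid (1.36, 1.53 and 0.494 CPM on day 0 and 9.46, 8.60 and 10.5 CPM on day 4, 3.08), and G0s2, an inhibitor of adipose triglyceride lipase (0.387, 0.639 and 0.124 CPM on day 0 and 13.2, 11.3 and 10.9 CPM on day 4, 4.93). In both of these genes every day 4 library lay above every day 0 library. Rnase10 and Cd46, which close these runs or stand in them near the threshold, were no longer called without AdV-EGFP replicate 2 (0.85 and 0.76), and Cd46 also without AdV-EGFP replicate 1 or OI-AdV-EGFP replicate 2. Of the 5 falling runs, that with the most negative median (−3.26) held Lce1g, Lce1h, Kprp and Crct1 of the cornified envelope on chromosome 3.

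**Figure D3:**
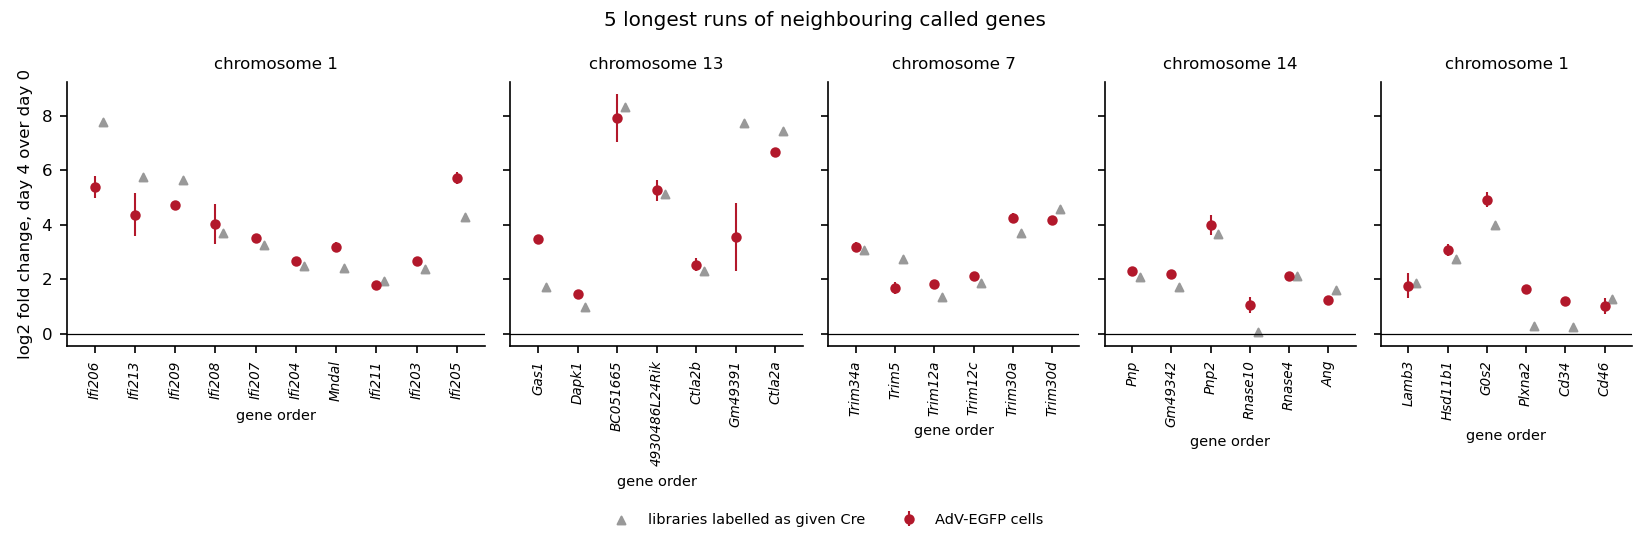
Fitted log2 fold change (day 4 over day 0) of each gene in the 5 longest runs of neighbouring genes, in gene order along the chromosome, for the EGFP cells (circles, with bars of 1 standard error) and the cells labelled as given Cre (triangles). The 10 genes of the Ifi run lie between 1.77 and 5.72 in the EGFP cells, and the values of BC051665, which had no count on day 0, and of Ifi213 and Ifi208 depend on the fit's prior count.

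Metal and vitamin handling changed with large single genes. Of 22 iron genes 9 rose and 2 fell, among them the transferrin receptor Tfrc, which takes up iron (103, 104 and 95.1 CPM on day 0 and 36.0, 28.1 and 31.3 CPM on day 4, −1.66), while transferrin, Trf (2.42), and ceruloplasmin, Cp (3.73), rose. The metallothioneins Mt1 (97.2, 83.8 and 87.3 CPM on day 0 and 397, 418 and 388 CPM on day 4, 2.17) and Mt2 (70.8, 65.9 and 63.7 CPM on day 0 and 614, 576 and 537 CPM on day 4, 3.11), which bind zinc and copper, rose, with every day 4 library above every day 0 library. Of the zinc transporters Slc39a8 (1.46) and Slc39a12 (3.46, and 4.35 without AdV-EGFP replicate 3) rose and Slc30a4 fell (−1.35). In retinoid handling 6 of 13 genes rose and 2 fell. Beside Aldh1a1, the retinoic acid hydroxylase Cyp26b1 (3.01) rose, and Crabp1, which binds retinoic acid, went from 80.1 ± 5.55 to 13.2 ± 0.317 CPM (−2.60).

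Lists of lipid synthesis held few called genes, at shares below those of all tested genes, of which 15.1% rose and 10.8% fell. Of 24 genes of cholesterol synthesis and uptake 2 rose and 2 fell (8.33% each). Of 15 of fatty acid synthesis 1 rose, Acss2 (1.74), and 1 fell, Fads2 (−1.34), or 6.67% each. In fatty acid oxidation 4 of 22 rose, a share of 18.2% near that of all genes, and none fell by edgeR (1 at an unadjusted p under 0.05, 0 by DESeq2). The largest rise was in Pdk4, a kinase that shuts off pyruvate dehydrogenase, at 18.1, 19.4 and 19.8 CPM on day 0 and 204, 198 and 201 CPM on day 4 (3.39). Ppargc1a, a coactivator of mitochondrial genes (1.09), was no longer called without AdV-EGFP replicate 2 (0.97) or OI-AdV-EGFP replicate 3 (0.95). Of 7 adipocyte markers 3 were tested and all 3 rose, with a summed level of 2.59–4.65 CPM on day 0 and 89.4–98.3 CPM on day 4. Most of that was Fabp4, while Adipoq stood at 0.194, 0.0639 and 0.309 CPM on day 0 and 1.18, 1.34 and 1.25 CPM on day 4 and Pck1 at 0 in all 6 libraries. Their part in the lipid genes was not tested. Of 45 lysosomal genes 7 rose, among them the cathepsins Ctso (2.22), Ctsf (1.55) and Ctsh (1.40), a share of 15.6% close to that of all genes. All 45 had a positive log2 fold change, with a median of 0.69.

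Some genes that supply protein synthesis fell, while ribosomal protein genes stayed within the fold threshold. Of 25 ATF4 targets and genes of amino acid supply 9 fell and none rose by edgeR (3 at an unadjusted p under 0.05, 0 by DESeq2). Slc7a5, the large neutral amino acid transporter, stood at 116, 124 and 115 CPM on day 0 and 15.8, 15.9 and 14.9 CPM on day 4 (−2.93), the cystine transporter Slc7a11 had −3.33 and the pseudokinase Trib3 −3.36. Of 20 cytosolic tRNA synthetases 4 fell, led by Cars (−1.49), and of 35 ribosome biogenesis genes 11 fell, among them the dyskerin gene Dkc1 (−1.30) and fibrillarin, Fbl (85.0 ± 5.87 to 35.7 ± 1.39 CPM, −1.25). In these lists 18 of 20 and 34 of 35 genes had a negative log2 fold change. By contrast none of 76 cytosolic and none of 77 mitochondrial ribosomal protein genes was called by edgeR, with medians of 0.06 and 0.07. At an unadjusted p under 0.05, 34 cytosolic ones were higher and 9 lower, and 27 mitochondrial ones higher and 22 lower, and DESeq2 called 0. None of 22 ER chaperone genes was called by edgeR or DESeq2 either (median −0.13, 5 higher and 11 lower at an unadjusted p under 0.05). Among 25 cytosolic chaperones Cryab, αB-crystallin, rose, at 96.0, 78.0 and 94.1 CPM on day 0 and 343, 337 and 341 CPM on day 4 (1.93), and was the only one called by edgeR. No chaperone of this list fell by edgeR (18 at an unadjusted p under 0.05, 2 by DESeq2), although 2 fell with RLE scaling or without the filter and 1 without AdV-EGFP replicate 2 or 3.

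Of 23 CDK inhibitors, cyclins D and E2F factors 2 rose, 4 fell and 17 were not called. Of 23 genes of nucleotide synthesis 6 fell, among them thymidine kinase Tk1 (−2.37) and thymidylate synthase Tyms (−1.79). The atypical repressors E2f7 (32.2, 36.5 and 34.7 CPM on day 0 and 3.11, 3.54 and 2.45 CPM on day 4, −3.51) and E2f8 (−3.83) fell, as did Foxm1 (−2.65), a driver of mitotic genes. Cdkn1c, the CDK inhibitor p57, stood at 17.9, 16.03 and 18.7 CPM on day 0 and 521, 517 and 503 CPM on day 4 (4.87, standard error 0.05, adjusted p = 7.4e-29), and all day 4 libraries lay above all day 0 libraries. Cdkn2a was the other that rose (1.35). Replication-dependent histones had 7 of 36 up and 3 down, a mixed picture in genes whose mRNAs mostly lack poly(A) tails and whose copies may share reads.

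Among transcription factors, Klf15 (1.05 to 26.6 CPM, 4.65) and Klf9 (1.40), both textbook glucocorticoid receptor targets, rose, and Klf5 (−1.79) and Klf10 (−1.26) fell. Of 33 nuclear receptors 9 rose and 6 fell, with the oxysterol receptor Nr1h3 (0.452, 0.255 and 0.309 CPM on day 0 and 8.82, 8.43 and 9.30 CPM on day 4, 4.68) showing the largest rise and Nr4a1 the largest fall (−4.03). Clock genes fell in Nr1d1 (−1.602), Nr1d2 (−1.61), Ciart (−2.01) and Bhlhe40 (−2.09), while Npas2 (1.17) rose. The sampling hours are not given in the sources used here. Of 28 craniofacial patterning genes 7 rose and none fell by edgeR (11 at an unadjusted p under 0.05, 0 by DESeq2), among them Hand2 (1.53), Tbx20 (2.62) and Msx1 (1.12). Only 4 Hox genes were tested, of which Hoxd8 was among those called, at a summed level of all Hox genes of 3.33–3.87 CPM on day 0 and 6.85–8.19 CPM on day 4. Hoxd8 was no longer called without AdV-EGFP replicate 2 (0.93).

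At the cell surface, 44 of 221 solute carriers (19.9%) rose and 32 (14.5%) fell, against 15.1% and 10.8% of all tested genes. Slc10a6, a transporter of sulfated steroids, had 6.15, and Slc6a7, the proline transporter, went from no count to 71, at least 21.3-fold higher. The serotonin transporter Slc6a4 had 2 counts on day 0 and 63 on day 4, a ratio of 28.3 (95% exact counting interval 7.53 to 239). Of 38 potassium channels 10 (26.3%) rose and 8 (21.1%) fell. Kcna2 had no count on day 0 and 46, 40 and 19 on day 4, at least 31.5-fold higher, while its relative Kcna3 (−4.396, and −5.62 without OI-AdV-EGFP replicate 2) and the background channel Kcnk10 (−4.09) fell. Cadherins and protocadherins had 11 of 66 (16.7%) up and 11 (16.7%) down, and the share up was near that of all tested genes. Cdh13 (2.76), a cadherin anchored by a lipid and binding adiponectin, was among those up, and Cdh10 (−3.04) among those down.

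Some genes had counts on 1 day only. Altogether 939 genes with counts on day 4 had none on day 0, of which 49 were tested, and 632 the reverse, of which 11 were tested. Beside Serpina3m, Zfp968 and Lcn2, the highest were Tdo2, tryptophan dioxygenase, a hepatic enzyme with 586 counts on day 4 (at least 176-fold higher), and Slco1a4, an organic anion transporter with 346 (at least 104-fold). Those lost were lower. ENSMUSG00000121570 had 16, 30 and 62 counts on day 0 and none on day 4, at least 40.0-fold lower, and Gm45234 had 0, 22 and 49, so AdV-EGFP replicate 1 also lacked it, and it was no longer called without AdV-EGFP replicate 3 or OI-AdV-EGFP replicate 3.

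Osteoblast markers rose in 5 of 8, with values that varied between libraries of a group. Alpl, alkaline phosphatase, which frees phosphate for mineral, stood at 3.81, 2.17 and 0.865 CPM on day 0 and 11.05, 11.04 and 14.7 CPM on day 4 (2.43, standard error 0.30, adjusted p = 8.3e-08). Ibsp, bone sialoprotein, stood at 52.2, 33.8 and 0.432 CPM on day 0 and 285, 82.2 and 293 CPM on day 4 (2.95, standard error 0.54, adjusted p = 3.3e-05), so AdV-EGFP replicate 3 and OI-AdV-EGFP replicate 2 were each far below the others of their group. Without AdV-EGFP replicate 1 its log2 fold change was 3.69, and without replicate 3 it was 2.35. Bglap, osteocalcin, whose reads may be shared with its near-identical neighbours, stood at 0.452, 0.128 and 0.247 CPM on day 0 and 3.53, 2.27 and 5.601 CPM on day 4. Pth1r, the receptor of parathyroid hormone, went from 4.25 ± 0.264 to 16.4 ± 0.230 CPM (1.95) with little spread, and Phex, a peptidase of osteocytes, from 3.03 ± 0.503 to 7.57 ± 2.01 CPM (1.33). OI-AdV-EGFP replicate 2 was the lowest of its group in Sp7, Ibsp, Bglap, Dmp1 and Phex, and replicate 3 the highest in Alpl, Ibsp, Bglap, Dmp1 and Phex. By contrast, OI-AdV-EGFP replicate 2 was the highest of its group in Runx2 and Pth1r, and replicate 1 in Sp7. On day 0, AdV-EGFP replicate 1 was the highest of its group in Sp7, Alpl, Ibsp, Bglap and Pth1r, and replicate 2 in Runx2, Dmp1 and Phex. Some of the 8 markers thus shared an order of the libraries and others did not, and a cause was not tested.

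The genes of early commitment did not pass. Sp7 stood at 3.68, 2.23 and 1.91 CPM on day 0 and 4.17, 2.61 and 4.08 CPM on day 4 (adjusted p = 0.16), and Runx2 at 44.4, 46.9 and 45.1 CPM on day 0 and 40.4, 43.4 and 40.2 CPM on day 4, lower on day 4 by less than 2-fold (−0.14, adjusted p = 0.034) but not on the FPKM scale, where the log2 difference was 0.054 with a pseudocount of 1. Dmp1, of osteocytes and mineralizing cells, stood at 5.23, 5.30 and 5.002 CPM on day 0 and 4.05, 2.15 and 11.3 CPM on day 4, and its day 4 libraries lay on both sides of those of day 0. Without OI-AdV-EGFP replicate 3 its log2 fold change went from 0.18 to −0.74. Col1a1, the main collagen of bone, had −0.05 (adjusted p = 0.38). Igf2, a growth factor that the study follows, stood at 771, 725 and 734 CPM on day 0 and 1428, 1599.7 and 1567 CPM on day 4 (1.04).

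**Figure D4:**
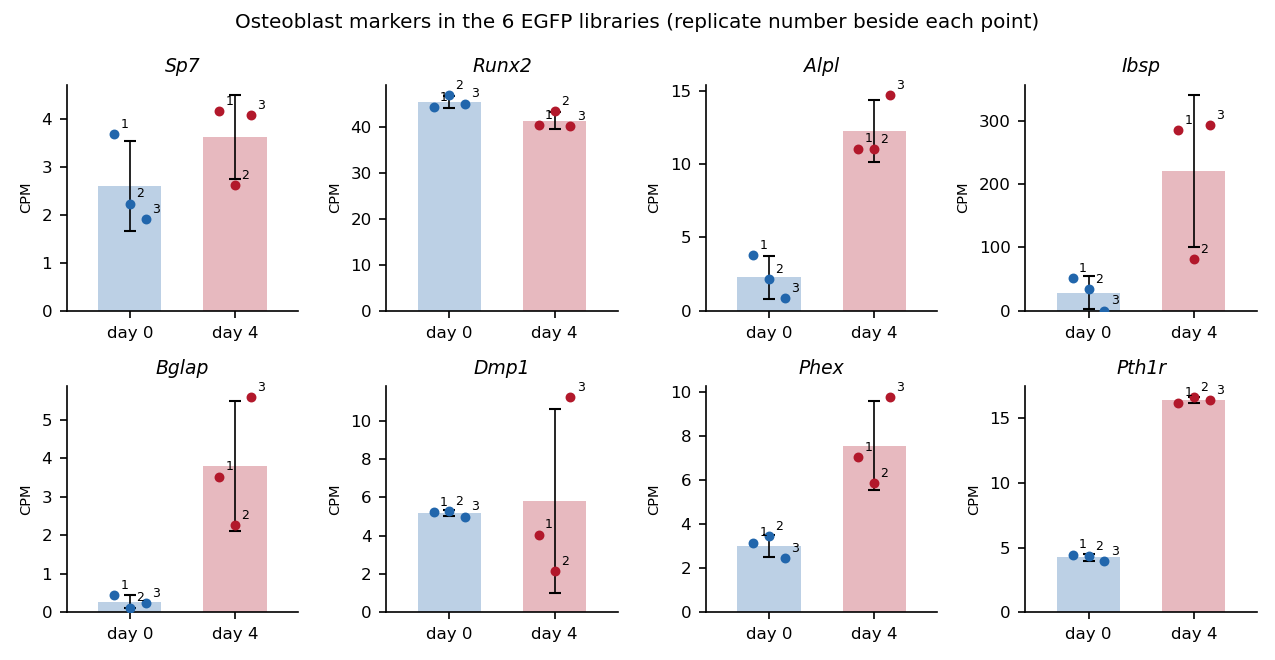
CPM after TMM scaling of the 8 osteoblast markers on day 0 (AdV-EGFP) and day 4 (OI-AdV-EGFP), with 1 point per library and its replicate number, bars at the mean and error bars of 1 SD (n = 3). The days are apart in Alpl, Ibsp, Bglap, Phex and Pth1r and overlap in Sp7 and Dmp1, and the spread on day 4 is widest in Ibsp and Dmp1.

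Markers of other cell types moved in both directions. Of 8 chondrocyte markers 6 were tested, Hapln1 rose (1.54) and Acan, aggrecan (5.50 ± 0.471 to 1.07 ± 0.240 CPM, −2.36), and Col10a1 of hypertrophic chondrocytes (−2.07) fell, while Sox9 had 0.48. Endothelial receptors Kdr (2.41 to 11.8 CPM) and Tek (1.19 to 5.36 CPM) rose, whereas Pecam1 went from 0.253 ± 0.109 to 0.355 ± 0.218 CPM and Cldn5 had no count in any of the 6 libraries. The Schwann cell gene S100b (1.26 to 12.2 CPM) rose, with Foxd3 near 0. Mural markers Rgs5 (3.25 to 11.2 CPM) and Abcc9 (0.318 to 2.79 CPM) rose and Myh11 had −0.41. Skeletal α-actin, Acta1, fell (68.9 ± 1.96 to 8.40 ± 1.37 CPM, −3.03), with Myod1 and Myog under 1 CPM. No erythroid marker had enough counts to be tested, and Cdh1 was the only epithelial marker called (0.674 to 1.78 CPM).

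The same induction was carried out in cells given AdV-CRE-EGFP, in 6 libraries that share none with the comparison above. In these libraries Plagl1 RNA went from 589 to 385 CPM, so they are named by their label. The paper reports reduced PLAGL1 protein in AdV-CRE-EGFP cells by Western blot, and protein was not measured in these libraries. There 1646 genes rose (12% of those tested) and 1179 fell (8.62%). The risers in common were 1387, or 67.2% of those in the EGFP cells and 84.3% of those in the cells labelled as given Cre, and the fallers in common 962, or 65.1% and 81.6%. Of the 3541 genes called in the EGFP cells, 3451 (97.5%) had the same sign in the other cells, 2 rose in EGFP cells and fell in the others, and 3 did the reverse. The median log2 fold change of the EGFP risers was 1.36 in the cells labelled as given Cre, and of the fallers −1.24. Both sets were chosen by their size in the EGFP cells, so smaller values in the others follow in part from that choice.

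The response itself was tested for a difference between the viruses by the interaction term. At an adjusted p under 0.05 and a difference of at least 1 in log2 fold change, 530 genes (3.88%) differed, 387 (2.83%) with the more positive response in the EGFP cells and 143 (1.05%) with the more negative. Of the genes that rose in the EGFP cells 303 (14.7%) had the more positive response there, and of those that fell 90 (6.09%) had the more negative response. The EGFP response that chose these genes is also part of the difference, so these shares are a description and not a test.

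Ibsp and Mmp13 were among the 5 largest differences toward the EGFP cells. Ibsp had 2.95 in the EGFP cells and −2.22 in the cells labelled as given Cre (difference 5.17, adjusted p = 6.0e-04), a call that limma did not make on log2(FPKM + 1) (4.64) or log2(FPKM + 0.1) (5.17). Mmp13 had 4.51 and 0.66 (difference 3.84, adjusted p = 3.0e-15). For Mmp13 the day 0 levels also differed, since it went from 135 to 213 CPM in the cells labelled as given Cre against 17.1 to 388 CPM in the EGFP cells. Enpep, an aminopeptidase that cleaves angiotensin II, stood at 1.94, 1.79 and 1.91 CPM on day 0 and 54.2, 52.8 and 48.5 CPM on day 4 in EGFP cells (4.78), against 1.34 in the others (adjusted p = 1.2e-13). Wfdc3, a whey acidic protein family member, had 6.33 against 2.97.

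Others went the opposite way. Mbnl3, an RNA-binding splicing regulator, had −0.39 in EGFP cells and 2.02 in the others (difference −2.41, adjusted p = 4.5e-11), and the amino acid transporter Slc6a15 −0.54 and 1.57. Peg10, an imprinted gene derived from a retrotransposon, stood at 82.4, 77.2 and 81.6 CPM on day 0 and 25.2, 32.4 and 28.1 CPM on day 4 in the EGFP cells (−1.49) and had 0.44 in the others (adjusted p = 3.9e-14). Sema7a fell in both, with −4.05 against −2.13 (difference −1.92, adjusted p = 2.5e-09). Of MHC class I and loading genes, 19 of 20 rose in the EGFP cells and 11 of 20 in the others, and of 36 histone genes 7 and 16 rose. These counts were not themselves tested for a difference.

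**Figure D5:**
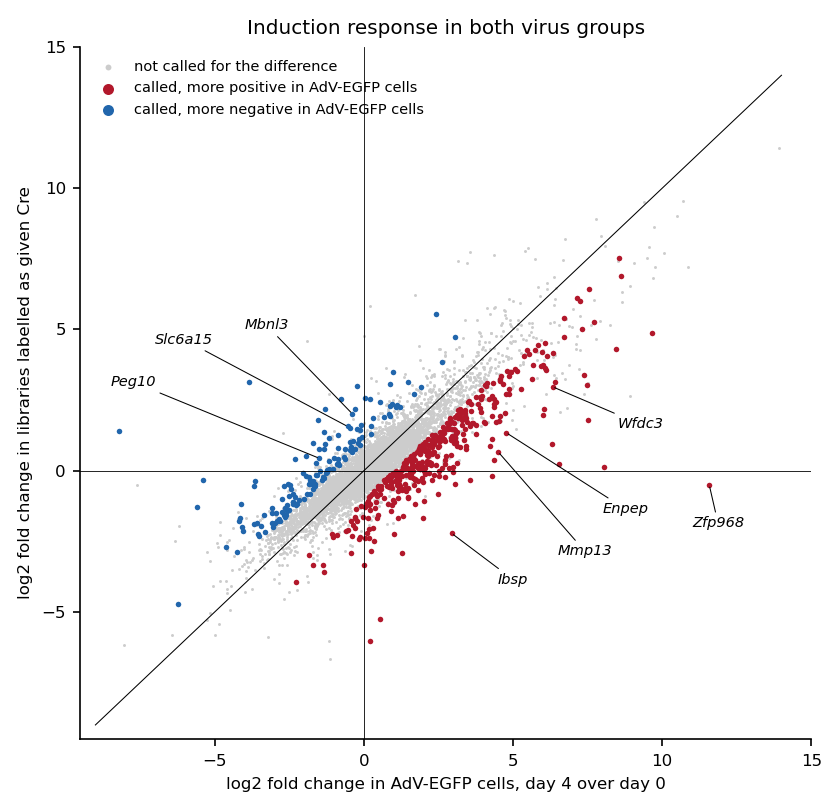
Log2 fold change with induction in the EGFP cells (x axis) and in the cells labelled as given Cre (y axis) for every tested gene, 1 point per gene, with the 530 genes whose response differed in colour. The 2 axes share no library, and most points lie near the diagonal, with Ibsp and Zfp968 far below it.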

How the data were processed

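RNA of 12 libraries was measured, 3 in each of 4 groups, and every library was placed by its title. The authors used Cutadapt for trimming, HISAT2 for alignment to GRCm39 and HTSeq for counting by gene, according to the methods and the submitters' processing notes. Per gene and library, the deposited table gives an estimated count that was not scaled, and some of these values are not whole, for which the sources used here give no reason. The authors' FPKM values, scaled to transcript length and mapped fragments, stand beside them. The strand setting and annotation release are not given in the sources used here, so antisense, overlapping and near-identical genes are uncertain.

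Estimated counts were rounded. The main test was the quasi-likelihood F test of edgeR 4.0.16 in R 4.3.3 after TMM scaling and filterByExpr, with all 12 libraries in 1 fit of 4 group means (common biological coefficient of variation 0.0472). Thresholds were an adjusted p under 0.05 and a log2 fold change of at least 1 in size. Libraries of a group differed by chi-squares of 2.16 to 5.07 per gene, so none was counted as a repeat. The steps were tested on simulated data. Intervals of count ratios are exact at 95% and, like the floor of 3 counts over the 3 libraries of a group, cover counting error only.

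The members and gene lists were chosen with earlier results of these data known. Genes named were the 15 largest rises and 15 largest falls with a mean of at least 10 CPM and no overlap, the 8 largest gains and losses in CPM, up to 3 called members of each list and direction, the 5 highest genes without counts on the other day, the members of the 5 longest runs, the markers, the 5 largest differences between viruses in each direction, and Plagl1, Igf2, Runx2, Sp7, Col1a1, Dmp1 and Actb. Fos, Jun, Egr1, Myc, Spry1, Id2, Id3, Skil, Smad7, Pmepa1, Il11, H2-K1, B2m, Trf, Cp, Gstt1, Gstm2, Nr1d1, Msx1, Slc39a8 and the genes of shorter runs were named after their values were seen. Some genes that this rule names are not reported here.

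Promoters (RefSeq, GRCm39) were matched by symbol for 10680 of the 13670 tested genes. That is under 80%, so a comparison of motif shares between genes that rose and fell is void and is not given. Gene coordinates follow GENCODE release 39 for mouse, on GRCm39. Alternatives were DESeq2 1.42.0, other scalings, no filter, the EGFP libraries alone, a test against the fold threshold (glmTreat), limma 3.58.1 on FPKM with pseudocounts of 1 and 0.1, a replicate block and leaving out each library.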

Additional observations from a re-analysis of the deposited data

Results flagged for a closer look

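The response to induction differed between the EGFP cells and the cells labelled as given Cre in 530 genes by the interaction test in edgeR, at an adjusted p under 0.05 and a difference of at least 1 in log2 fold change. Differences are given as EGFP minus Cre-labelled.

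Among genes with the more positive response in the EGFP cells, Zfp968 differed by 12.09. It had no count in any AdV-EGFP library, and 1 of the 3 OI-AdV-EGFP libraries was far below the others. The fitted size is thus no measure of a fold. In the cells labelled as given Cre, Zfp968 averaged 17.2 CPM on day 0 and 12.1 CPM on day 4. Limma did not call its difference on log2(FPKM + 1) (2.19). Ibsp differed by 5.17, a value that rests on libraries which also vary within each EGFP group, and it was not called by limma on either FPKM scale (4.64 and 5.17). Mmp13 differed by 3.84, Enpep by 3.44 and Wfdc3 by 3.37, and for these the 3 libraries of each EGFP group lay close together on day 4.

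Among genes with the more negative response in the EGFP cells, Mbnl3 differed by −2.41 and the transporter gene Slc6a15 by −2.11, and both rose only in the cells labelled as given Cre. Gm49450 differed by −1.97, with day 0 libraries of the EGFP cells between 20.6 and 55.2 CPM, and was not called by DESeq2 (−1.98), by limma on log2(FPKM + 1) or log2(FPKM + 0.1) (−2.01 and −2.25) or by glmTreat. The imprinted Peg10 differed by −1.93 and Sema7a by −1.92, which fell in both.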

How the results depend on the processing

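Counts of genes that rose, fell and differed in response between the viruses were 2063, 1478 and 530. With limma on log2(FPKM + 1) they were 1173, 845 and 247, as that pseudocount shrinks low genes, and a test against the fold threshold (glmTreat) left 124 of the last. Leaving out 1 library at a time gave 2059 to 2097, 1476 to 1555 and 474 to 523. DESeq2 gave 2142, 1593 and 477 and shared 1976 risers and 1447 fallers, and no filter gave 2250, 1691 and 581. Scaling moved the median of all genes by less than 0.1. No pairing by replicate number was seen, with correlations of deviations of −0.018, −0.0036 and −0.041 for same-numbered libraries and −0.051 to 0.070 for the others. With 3 libraries a group, such a check cannot show that the libraries were unpaired. With the replicate block the counts were 2059, 1473 and 514.

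The sign turned for 3 genes that were not called. Runx2 was 0.0544 on log2(FPKM + 1) and 0.058 on log2(FPKM + 0.1), and Dmp1 −0.027 and −0.13 there. Leaving out 1 library at a time, Dmp1 ran from −0.7376, without OI-AdV-EGFP replicate 3, to 0.5743, and Col1a1 from −0.1411 to 0.0087, without OI-AdV-EGFP replicate 1. For named genes and lists, 5410 other values kept their direction and side of the threshold, 137 fell below it and 69 moved, and the cause was not tested. Depth limits genes near 0, such as Kcna5, whose 21 counts on day 4 allow only at least 6.30-fold.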
